A study of Mus musculus with 6 samples.

Results

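Heat shock proteins and their J-domain partners were examined as one gene set in the DNA methylation data of cultured spermatogonia kept frozen in space or on Earth. Genes were taken by name, from the Hspa, Hspb, Hspd, Hspe, Hsph, Hsp90, Dnaja, Dnajb, and Dnajc families. Of 73 genes with such a name, 62 had at least 1 CpG site with 10 or more reads in each of the 6 samples and within 5000 bp of the transcription start site (TSS), compared with 19731 genes so measured in all. These 62 genes held 1735 CpG sites. The name rule also took Hspbap1, which is named for its binding to a small heat shock protein and is not a chaperone.

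The cells were GS cells, cultured spermatogonia that include spermatogonial stem cells, of the strain DBA/Tg14(act-EGFP-OsbY01), which carries an EGFP transgene under an actin promoter. The 3 replicates of Space GS cells had been cryopreserved for 6 months on the International Space Station, and the 3 replicates of Ground GS cells had been cryopreserved for 6 months on Earth. Cells of both groups were frozen, thawed, and passaged before DNA was taken, so neither group shows cells that were never frozen. GS cells grow on mouse embryonic fibroblast feeders with GDNF and FGF2, and the share of feeder DNA in the samples is unknown. The replicates are described as biological, without the cultures that they came from, so p-values measure only the spread between these samples.

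DNA methylation was read by reduced representation bisulfite sequencing (RRBS), which sequences CpG-rich fragments after bisulfite treatment, which tells methylated from unmethylated cytosines in every read. The level of a gene is the percent of methylated reads, summed over its sites. Summed over sites, the chaperone genes received 56503 to 67079 reads per sample, with a median coverage of 30 to 36 reads per site. Neighbouring sites are often on the same read and are then counted as separate calls, and reads may include copies of 1 molecule, so the calls of a gene are not independent. As a check of the labelled cell type, germ line genes whose promoters are methylated in somatic cells were read within 1000 bp of the TSS. Of 9 such genes, 8 were measured (Ddx4, Dazl, Mael, Tdrd1, Sycp1, Hormad1, Slc25a31, and Taf7l), and their levels lay between 0% and 6.67% in every sample.

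Heat shock proteins keep other proteins folded. Hsp70 proteins (Hspa genes) bind unfolded stretches, J-domain proteins (Dnaj genes) deliver clients to Hsp70 and drive its ATP cycle, Hsp90 proteins mature kinases and steroid receptors, and small heat shock proteins (Hspb genes) hold unfolded proteins until they can be refolded. Some members are made in every cell, some are induced by heat shock factor 1 under stress, and some are made mainly in male germ cells, in which a dedicated Hsp70 is needed to complete meiosis. DNA methylation of a CpG-rich promoter is generally associated with a silent gene.

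Promoters of the genes were taken from RefSeq, on GRCm38.p6. Each promoter sequence runs from 250 bases before to 50 bases after the transcription start, and 58 of the 73 genes matched by name, with 73 promoters in all. They held a median of 23 CpGs, against 7 in all 32851 promoters of the table. Hspa1a and Hspa1b encode the same main stress-induced Hsp70, and their promoters are given first because they are near copies, with CpGs in capitals:
Hspa1a, chr17:34972107-34972406, minus strand: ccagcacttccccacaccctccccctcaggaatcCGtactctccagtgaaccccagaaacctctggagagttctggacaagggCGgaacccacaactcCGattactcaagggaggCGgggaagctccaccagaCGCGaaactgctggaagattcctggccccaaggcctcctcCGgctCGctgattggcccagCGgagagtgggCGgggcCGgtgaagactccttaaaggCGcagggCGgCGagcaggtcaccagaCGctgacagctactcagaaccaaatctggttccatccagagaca
Hspa1b, chr17:34959189-34959488, minus strand: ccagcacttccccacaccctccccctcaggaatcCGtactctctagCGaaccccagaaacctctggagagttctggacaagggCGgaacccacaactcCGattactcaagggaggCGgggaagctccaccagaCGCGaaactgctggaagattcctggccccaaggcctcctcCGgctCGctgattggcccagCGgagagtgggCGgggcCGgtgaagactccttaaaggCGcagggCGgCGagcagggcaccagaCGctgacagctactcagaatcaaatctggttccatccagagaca
The pair shared 296 of 300 bases (98.7%) and differed by C44T, T47C, T249G, and C276T, with the Hspa1a base first and positions counted from 1 at the 5′ end of the printed sequence. Hspa1a held 15 CpGs and Hspa1b 16. Reads that fit both copies cannot be placed with certainty, and the treatment of such reads is not given in the sources used here, so levels of both genes are uncertain.

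Promoters of 4 genes made mainly in testis are given because 2 of them were measured and 2 were not, again with CpGs in capitals:
Hspa2, chr12:76404120-76404419, plus strand: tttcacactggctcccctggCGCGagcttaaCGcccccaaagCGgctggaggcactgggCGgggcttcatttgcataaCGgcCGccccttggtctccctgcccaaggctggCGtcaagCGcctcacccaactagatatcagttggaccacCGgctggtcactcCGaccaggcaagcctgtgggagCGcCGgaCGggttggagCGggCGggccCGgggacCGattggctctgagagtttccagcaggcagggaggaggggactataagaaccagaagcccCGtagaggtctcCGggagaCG
Dnajb3, chr1:88205699-88205998, minus strand: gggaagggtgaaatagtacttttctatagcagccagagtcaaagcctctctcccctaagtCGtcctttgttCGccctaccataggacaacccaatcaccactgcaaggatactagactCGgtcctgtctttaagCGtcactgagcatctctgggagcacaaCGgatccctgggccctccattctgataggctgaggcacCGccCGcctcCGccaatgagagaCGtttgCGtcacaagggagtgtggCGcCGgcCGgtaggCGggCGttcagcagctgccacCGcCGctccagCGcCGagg
Dnajb7, chr15:81408224-81408523, minus strand: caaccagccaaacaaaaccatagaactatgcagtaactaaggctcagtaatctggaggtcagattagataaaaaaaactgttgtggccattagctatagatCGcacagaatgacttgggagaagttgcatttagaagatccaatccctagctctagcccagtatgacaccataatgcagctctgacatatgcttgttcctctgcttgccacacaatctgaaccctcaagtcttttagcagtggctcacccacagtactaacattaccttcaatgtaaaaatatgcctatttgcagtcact
Dnajb8, chr6:88222018-88222317, plus strand: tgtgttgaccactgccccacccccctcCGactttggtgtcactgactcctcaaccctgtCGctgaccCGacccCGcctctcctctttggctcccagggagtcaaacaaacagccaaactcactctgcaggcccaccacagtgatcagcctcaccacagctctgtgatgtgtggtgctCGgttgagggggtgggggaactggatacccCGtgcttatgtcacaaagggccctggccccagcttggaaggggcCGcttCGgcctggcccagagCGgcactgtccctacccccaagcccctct
Hspa2 held 21 CpGs and Dnajb3 held 19, and both were measured. Dnajb8 held 9 and Dnajb7 held 1, and neither had a site with 10 reads in all samples. The median was 16 CpGs for the 4 measured testis genes and 8.5 for the 4 unmeasured ones in the promoter table.

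The heat shock element, to which heat shock factors bind, is built of inverted GAA units. The promoter of Hspe1, which encodes the mitochondrial co-chaperonin, is given because it holds such an element close to its start and to that of Hspd1, with the bases of every GAANNTTC or TTCNNGAA match in capitals:
Hspe1, chr1:55087898-55088197, plus strand: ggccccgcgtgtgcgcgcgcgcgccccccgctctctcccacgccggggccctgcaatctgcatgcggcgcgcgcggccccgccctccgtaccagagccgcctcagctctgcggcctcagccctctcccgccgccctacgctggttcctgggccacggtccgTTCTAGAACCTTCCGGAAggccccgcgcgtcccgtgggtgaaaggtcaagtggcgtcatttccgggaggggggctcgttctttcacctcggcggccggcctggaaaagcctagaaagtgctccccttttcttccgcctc
The matches overlap and cover 18 bases, from 89 to 72 bases before the start. Both motifs are their own reverse complements and were searched on both strands. GAANNTTC was found in 15 of the 73 promoters (20.5%), against 7.86% of all 32851 promoters. TTCNNGAA was found in 8 (11.0%), against 8.52% of all promoters. The combined run, in which GAANNTTC continues into TTCNNGAA by a shared TTC on either strand, was found in 6 (8.22%), of Dnajb6, Hspd1, Hspe1, and Hsph1, against 0.603% of all promoters. CCAAT was found in 38.4% of the promoters and in 37.4% of all promoters. Several genes have more than 1 overlapping promoter entry, and entries of Hspd1 and Hspe1 overlap on opposite strands and hold the same element. These counts are therefore not independent. A match is only a description of the letters.

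At the sites that met the coverage minimum in every sample, chaperone genes were mostly unmethylated in both groups. The median of the gene levels was 2.03%, against 2.48% for the 19731 genes measured, and 48 of 62 genes (77.4%) had a level under 5%, against 65.3% of all genes. Within 1000 bp of the TSS, 54 of 55 genes (98.2%) were under 5%, against 87.9% of 16245 genes. Hspa12b, an atypical Hsp70, was the exception, with a level of 7.19%. Genes are not replicates, so no test was made between gene sets.

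**Figure D1:**
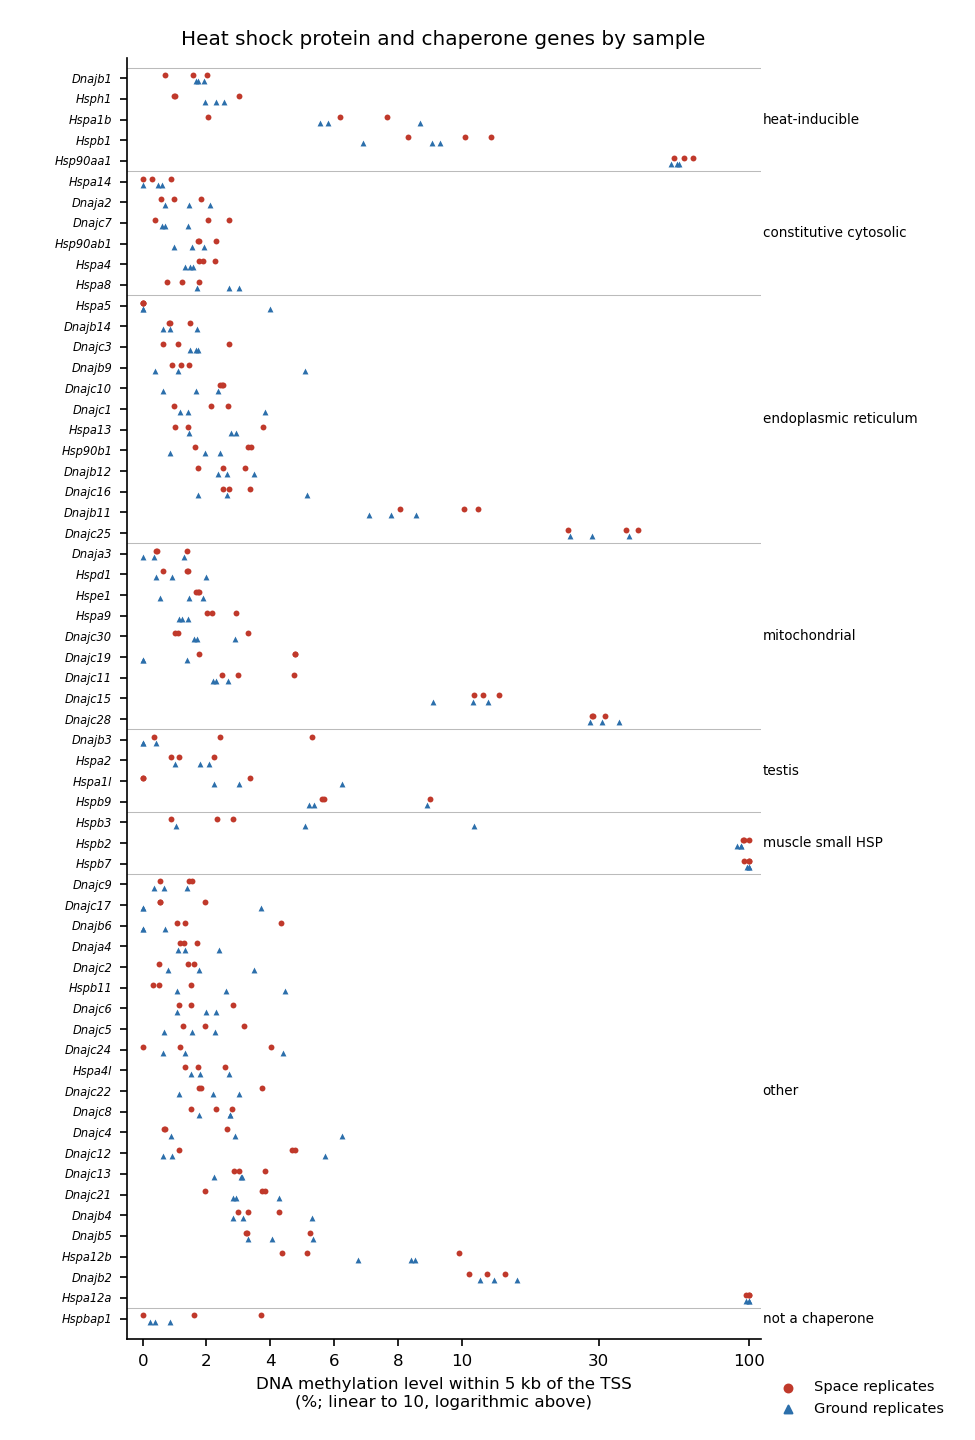
DNA methylation level (%, linear to 10 and logarithmic above) of the genes named by class within 5 kb of the TSS, with 1 point per replicate (circles, Space GS cells; triangles, Ground GS cells) and genes grouped by class. Most genes lie under 5% in every sample, and 8 of the plotted genes have a mean level over 10%.

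Almost all single sites were either low or high. Of the 1735 sites, 1684 (97.1%) had a mean level under 10%, 39 had a level over 80%, and 12 lay between. All 39 high sites, in 16 genes, were more than 1000 bp from the TSS. The mean site level was 1.49% within 200 bp of the TSS, against 2.13% for the sites of other genes at that distance. It was 1.62% against 2.28% at 200 to 500 bp, and 2.51% against 3.52% at 500 to 1000 bp. Sites of chaperone genes averaged 4.02% at 1000 to 2000 bp, against 11.2% for other genes. At 2000 to 5000 bp, the mean was 38.6% in 21 chaperone genes and 29.6% for other genes. The sites at the larger distances are few, and neighbouring sites share reads.

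**Figure D2:**
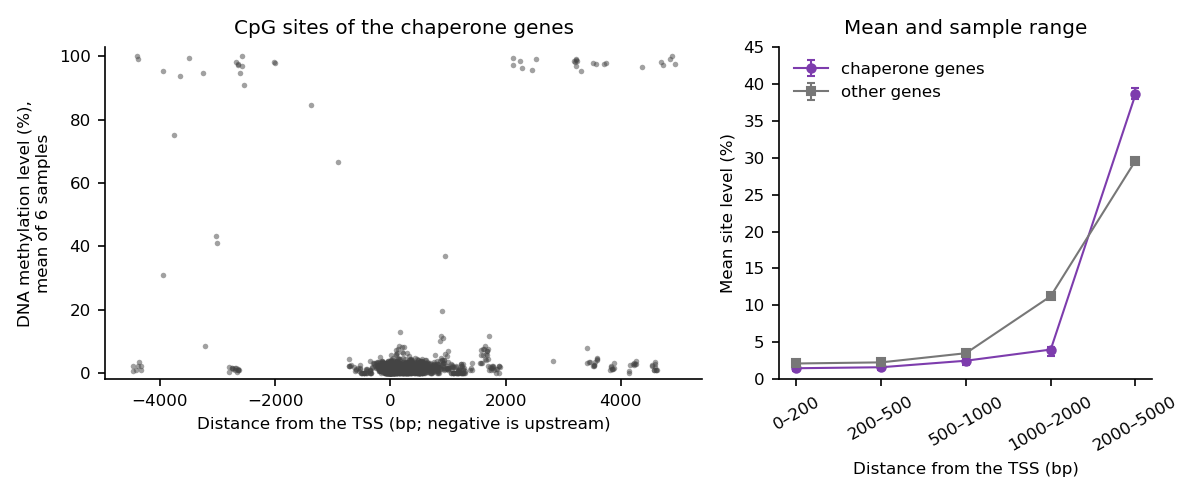
Left, mean level (%) of each CpG site of the chaperone genes over the 6 samples by distance from the TSS (bp). Right, mean site level (%) by distance for chaperone and other genes, with bars from the lowest to the highest sample, rising from 1.49% within 200 bp to 38.6% at 2000 to 5000 bp in chaperone genes.

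Constitutive cytosolic chaperones, which fold proteins in unstressed cells, were low in every sample at the sites that met the coverage minimum. Sites below that minimum were more methylated in Hsp90ab1. With the calls of all its sites within 5000 bp pooled, 972 of 11044 were methylated (8.80%), against 168 of 9799 at sites that met it. The same pooled level was 3.49% for Dnajc7 and 0.349% to 1.90% for the other measured genes of this class. The 6 measured genes had levels of 0.380% to 1.87%, with a median of 1.51%, and Dnaja1 is the closest gene of no site in the table. Hspa8 encodes Hsc70, the main Hsp70 of unstressed cells, and had levels of 0.770%, 1.23%, and 1.78% in Space GS cells and 2.71%, 3.03%, and 1.71% in Ground GS cells, over 39 sites. Its groups overlapped only at the highest Space and lowest Ground samples.
Hsp90ab1, the constitutive Hsp90, had levels of 1.74%, 1.77%, and 2.28% in Space GS cells and 1.93%, 0.966%, and 1.54% in Ground GS cells. Hspa4, a nucleotide exchange factor for Hsp70, had levels of 1.90%, 2.27%, and 1.76% in Space GS cells and 1.59%, 1.33%, and 1.48% in Ground GS cells, over 61 sites. All 3 Space levels of Hspa4 were above all Ground levels, by less than 1 percentage point. Dnaja2, a J-domain partner of Hsc70, lay between 0.565% and 2.11% over 71 sites. Hspa14, a ribosome-associated Hsp70, lay between 0% and 0.877% over 6 sites. Dnajc7, which binds both Hsp70 and Hsp90, lay between 0.379% and 2.71%, but its 14 sites were 2633 to 3222 bp upstream of the TSS.

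The heat-inducible genes were low near the TSS, and some of them were high farther away. Within 5000 bp, the median of the 5 measured genes was 5.99%, against 1.51% for constitutive genes. Within 1000 bp, it was 1.97% over the 3 genes with sites there (Dnajb1, Hsph1, and Hspb1), against 1.71% over 5 constitutive genes. Dnajb1, the J-domain partner of inducible Hsp70, had levels of 1.59%, 2.01%, and 0.702% in Space GS cells and 1.75%, 1.94%, and 1.67% in Ground GS cells. These came from sites that met the coverage minimum, with 173 methylated calls of 10775. With all its sites within 5000 bp pooled, Dnajb1 had 633 of 12896 (4.91%). Hsph1, an Hsp110 that releases nucleotide from Hsp70, had levels of 3.03%, 0.994%, and 1.01% in Space GS cells and 2.54%, 2.30%, and 1.94% in Ground GS cells. The groups of both genes overlapped.

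Hspa1b was read over 18 sites at chr17:35176510-35176654 (mm39), which lie 1560 to 1704 bp downstream of its TSS and outside the promoter printed above. Its levels were 6.18%, 2.06%, and 7.66% in Space GS cells and 5.56%, 8.68%, and 5.80% in Ground GS cells. The lowest sample was Space replicate 2. Hspa1a had no site with 10 reads in all samples. With the calls of all its sites and samples pooled, 27 of 1649 calls within 1000 bp of the TSS were methylated (1.64%), on at most 91 reads at a site. Of these 27 calls, 20 were in Space replicate 1, and the level without that sample was 0.627%. At 1003 to 1055 bp, 9 sites on 28 or 29 reads had no methylated call, and 3 counts of 29 reads allow a level of up to 10.3%. The starts of Hspa1a and Hspa1l, which point away from each other, were 547 bp apart, and Hspa1b started 12918 bp from Hspa1a.

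Hsp90aa1, the inducible Hsp90, had the highest level of the heat-inducible genes. Its levels were 54.8%, 59.4%, and 63.9% in Space GS cells and 53.6%, 57.0%, and 56.2% in Ground GS cells, over 11 sites. These values mixed sites of opposite state. Its 7 sites at 4321 to 4477 bp upstream averaged 1.54%, a pair of sites at 1998 and 2022 bp upstream (chr12:110671160-110671184) averaged 98.2%, and a pair at 2123 and 2132 bp downstream averaged 98.3%. A run of 59 sites at 6112 to 6812 bp downstream (chr12:110662350-110663050), beyond the 5000 bp limit, averaged 0.905%, with a range of 0.144% to 1.59% over samples. The table gives 1 TSS per gene, and no site of this gene with 10 reads in all samples lay within 1000 bp of it. Hspb1, the inducible small heat shock protein, also joined separate levels. Its 30 sites at 141 bp upstream to 1423 bp downstream averaged 2.30%, and its 3 sites at 2535 to 3024 bp upstream averaged 58.4%, with sites of 43.3% and 41.2% among them. Over all 33 sites, the levels of Hspb1 were 10.3%, 8.32%, and 12.7% in Space GS cells and 9.32%, 9.08%, and 6.91% in Ground GS cells, and the groups overlapped.

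**Figure D3:**
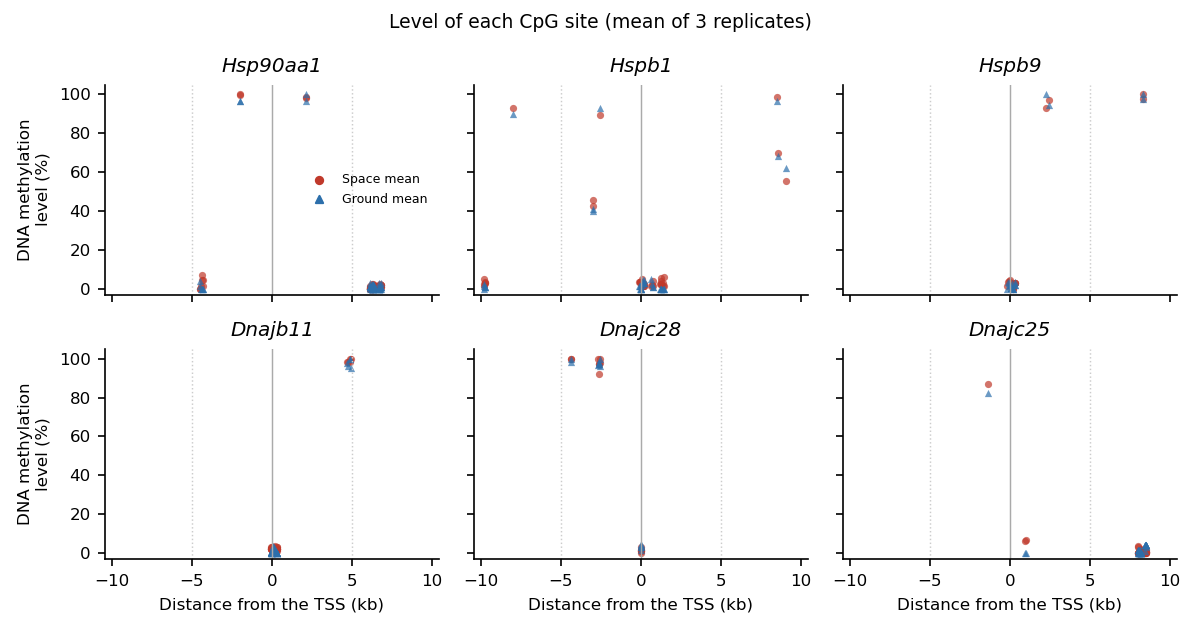
Level (%) of each CpG site with 10 reads in all samples within 10 kb of the TSS (distance in kb, negative is upstream) for 6 genes, as the mean of 3 Space (circles) and 3 Ground (triangles) replicates. Solid lines mark the TSS and dotted lines 5 kb, and each gene holds sites near 0% and sites over 80%.

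Measured testis genes also had low levels at the sites that met the coverage minimum. The 4 genes had a median level of 2.00% within 5000 bp and 2.07% within 1000 bp. Hspa2, the Hsp70 needed for meiosis in spermatocytes, had levels of 2.24%, 1.14%, and 0.872% in Space GS cells and 1.79%, 1.03%, and 2.09% in Ground GS cells. Its 56 sites ran from 107 to 1905 bp downstream of the TSS (chr12:76451057-76452855), and no run of them averaged over 2.01%. Hspa1l, an Hsp70 of spermatids, had levels of 3.38%, 0%, and 0% in Space GS cells and 6.25%, 3.03%, and 2.24% in Ground GS cells. These came from 80 to 148 calls per sample, summed over 4 sites. Dnajb3, a J-domain protein of spermatids, lay between 0% and 5.30%.
Hspb9, a small heat shock protein of testis, lay between 5.21% and 9.02% over 18 sites. Of these, 16 sites at 195 bp upstream to 334 bp downstream averaged 2.09%, and 2 sites at 2278 and 2453 bp downstream averaged 96.0%.

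Some testis genes below the coverage minimum had high levels. Their calls were pooled over all sites and samples, as a description, and no interval is given because the sites share reads. Dnajb8, a J-domain protein that suppresses aggregation, had 281 methylated calls of 292 within 1000 bp of the TSS (96.2%), at 22 sites with 4 to 28 reads each over all samples. Its levels ranged from 91.9% to 100% over samples. Dnajb7, another J-domain gene of testis, had 394 methylated calls of 553 within 1000 bp (71.2%), at 7 sites 450 to 588 bp downstream with 79 reads each. Its levels were 75.0%, 72.6%, and 85.7% in Space GS cells and 73.7%, 85.7%, and 41.0% in Ground GS cells, and Ground replicate 3 was the lowest. The promoter window of Dnajb7 printed above holds 1 CpG, and no site of the table lay that close to its TSS. Dnajb13, an axonemal J-domain protein, had 136 methylated calls of 181 (75.1%) at 7 sites 3195 to 3449 bp downstream, with at most 29 reads at a site. Dnajc5g had 3 calls, all methylated, at sites 2582 to 2659 bp upstream with 1 read each, all in Ground replicate 3. These calls can come from the same read. Dnajc5b had no site within 5000 bp. These genes came from few or uneven reads and were not tested.

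**Figure D4:**
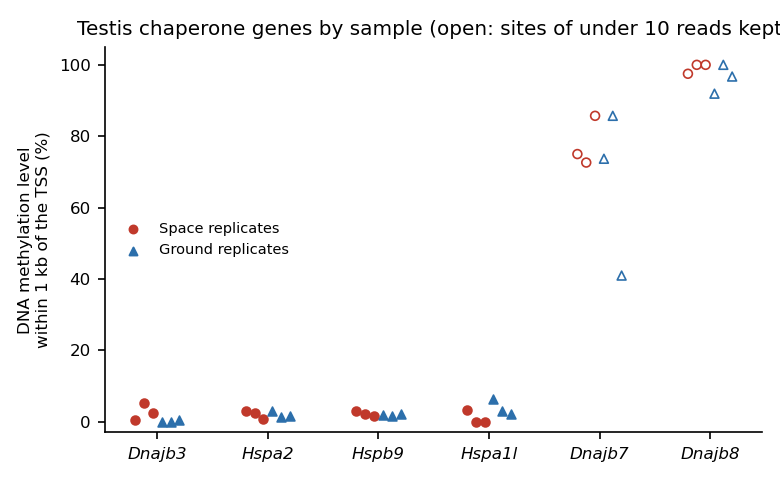
Level (%) within 1 kb of the TSS for 6 testis genes in each replicate (circles, Space; triangles, Ground). Filled points use sites with 10 reads in all samples, and open points use every read of Dnajb7 and Dnajb8, which lie from 41.0% to 100% while the filled points lie at 6.25% or lower.

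The other unmeasured genes were split. Dnajc27, Dnajc14, and Hspb8 had pooled levels of 0.269%, 1.57%, and 2.99% within 1000 bp. For Dnajc14, 7 of the 8 methylated calls were in Space replicate 2, and the level without it was 0.254%. Dnajc18 had 96.9% at sites 3947 bp upstream to 2573 bp downstream, with none within 1000 bp. Hspb6, a small heat shock protein of muscle, had 1 read.

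Chaperones of the endoplasmic reticulum (ER) and of mitochondria were low near the TSS, without exception among the 12 ER and 9 mitochondrial genes measured there, at 0.667% to 3.16% and 0.643% to 2.66%. Within 5000 bp, the medians were 2.13% and 1.94%. Hspa5 (BiP), the main Hsp70 of the ER, was read at 1 site 85 bp upstream, with 16 to 27 reads per sample. It had no methylated read except in 1 Ground sample, at 4%. Hsp90b1, the Hsp90 of the ER, lay between 0.852% and 3.39%. Hspd1 and Hspe1, which form the mitochondrial chaperonin, start 111 bp apart on opposite strands and had levels of 1.13% over 35 sites and 1.51% over 44 sites.

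Higher levels in these classes came from sites away from the TSS. Dnajb11, a J-domain partner of BiP, had 30 sites at 69 bp upstream to 339 bp downstream with a level of 1.55% and 5 sites at 4698 to 4942 bp with a level of 98.0%, which gave 8.85% in all. Dnajc15, a J-domain protein of the inner mitochondrial membrane, had 22 sites near the TSS at 1.57% and 4 sites at 3517 to 3735 bp at 97.7%. Dnajc28 had a level of 30.5%, from 6 sites around the TSS at 2.66% and 8 sites upstream, of which the runs averaged 97.6% and 99.6%. Dnajc25 had 1 site 1375 bp upstream at 84.8% and 2 sites at 927 and 1009 bp downstream at 3.27%. It also had a low run beyond the 5000 bp limit, as Hsp90aa1 had. This run of 40 sites, 7985 to 8510 bp downstream of the TSS used here (chr4:59003047-59003572, mm39), had a level of 1.17%. The RefSeq promoter of Dnajc25 is at chr4:59002943-59003242 on GRCm38.p6, with 35 CpGs. Coordinates were not converted between the builds, so whether the run covers that promoter was not tested.

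Genes with the highest levels were read at few, distant sites. Hspa12a, an atypical Hsp70, had 99.4% at 1 site 3497 bp upstream. Hspb7, a small heat shock protein of heart and skeletal muscle, had 99.1% at 2 sites about 3220 bp downstream, and its muscle relative Hspb2 had 95.3% at 1 site 3940 bp upstream. No site near the TSS of these 3 genes had 10 reads in all samples. Hspb3, also a muscle gene, had sites 310 to 375 bp downstream at 3.95%. Dnajb2, a J-domain protein of neurons, had 21 sites near the TSS at 1.57% and 5 sites at 3193 to 3309 bp at 97.5%, or 12.9% in all.

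Intermediate levels were found at 12 sites. Dnajb5 had 4 of them, at 855 to 957 bp downstream, at 10.1% to 36.9%. Single sites lay at 66.8% in Dnajc11, 911 bp upstream, and at 75.1% in Dnajc13, 3754 bp upstream. The paternally imprinted gene H19 had a level of 19.7% over 3 sites within 5000 bp, but this value mixed sites of different levels. Its 2 sites within 1000 bp of the TSS had a level of 3.64%, and the remaining site, farther upstream, was higher. The value of 19.7% therefore does not show an intermediate level at a site of H19.

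Space and Ground GS cells were then compared, to see whether storage in space was accompanied by a difference in methylation of chaperone genes. No gene was called. The reads of all 16126 genes with at least 3 sites and at least 10 methylated and 10 unmethylated reads were fitted with a quasi-binomial test, and 55 of the 62 chaperone genes entered. At a Benjamini-Hochberg adjusted p under 0.05, 0 of 55 genes were called, and 0 of all genes (0%). The smallest adjusted p of a chaperone gene was 0.907. The quasi-likelihood test of edgeR and limma on log2 ratios also called 0 of 55, and 0 of all genes tested. Hspa14, Hspa5, Dnaja3, Hspb2, Hspb7, and Hspa12a were among the genes with too few sites or reads for the test.

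At an unadjusted p under 0.05, 4 of 55 genes were counted, 2 with a higher mean level in Space and 2 with a lower one, against a background of 5.22% of all genes tested. By edgeR there were 6, against 4.6% of all genes, and by limma 4, against 4.94%. All 3 Space levels lay above all 3 Ground levels in 5 of 55 genes (Dnajc19, Hspa9, Dnajb6, Dnajc10, and Hspa4), against 5.89% of all genes tested. They lay below in 0 of 55, against 3.8%.

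The 4 genes with the smallest p were all under 6% in every sample. Dnajb3 had levels of 0.365%, 5.30%, and 2.43% in Space GS cells and 0%, 0%, and 0.411% in Ground GS cells, over 17 sites at chr1:88133320-88133459 (mm39). Its group means were 2.70% ± 2.48 and 0.137% ± 0.237 (SD, n = 3 each), with an adjusted p of 0.907 in the quasi-binomial test fitted over all genes. Space replicate 1 lay below Ground replicate 3, so the groups overlapped. The difference of 2.56 percentage points was 1.26 without Space replicate 2. The 32 methylated calls of Space replicate 2 fell on 12 sites with at most 4 at a site, and calls at neighbouring sites can come from the same read.
Dnajc19, which is part of the machinery that imports proteins into mitochondria, had levels of 4.78%, 1.77%, and 4.78% in Space GS cells and 0%, 1.38%, and 0% in Ground GS cells. The difference was 3.32 percentage points, and the adjusted p of the quasi-binomial test was 0.907. It came from 189 to 232 calls per sample summed over 7 sites, with 15 to 65 reads at a site. Hspb11, which despite its name is a component of intraflagellar transport, had levels of 0.524%, 1.53%, and 0.329% in Space GS cells and 4.48%, 2.62%, and 1.07% in Ground GS cells. Its difference was -1.93 points, or -1.05 without Ground replicate 1, with an adjusted p of 0.907 in the quasi-binomial test. Hspa8, described above, differed by -1.22 points, with group means of 1.26% ± 0.506 and 2.48% ± 0.689 and an adjusted p of 0.937 by the same quasi-binomial test. None of the 4 passed the threshold.

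**Figure D5:**
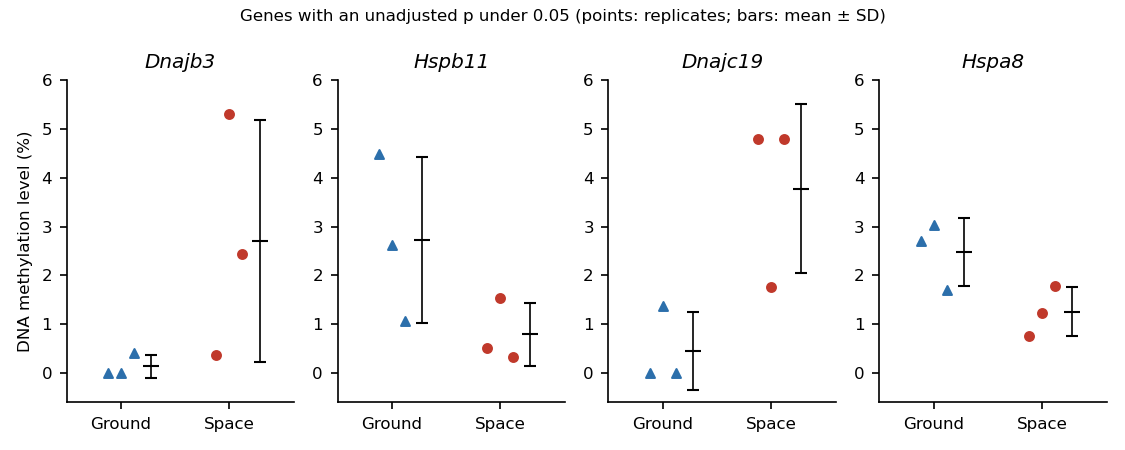
Level (%) of the 4 genes with an unadjusted p under 0.05 in each Ground (triangles) and Space (circles) replicate, with bars for mean ± SD. Only Dnajc19 has no overlap between groups, and all values are under 6%.

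Differences in the other genes were also within a few percentage points. Hspa9, the mitochondrial Hsp70, had levels of 2.93%, 2.00%, and 2.18% in Space GS cells and 1.15%, 1.44%, and 1.22% in Ground GS cells, without overlap. Dnajb11 averaged 9.90% ± 1.69 and 7.81% ± 0.739, and Dnajc11, of the mitochondrial membrane, 3.41% ± 1.19 and 2.40% ± 0.260. Without Space replicate 1, the difference of Dnajb11 went from 2.08 to 1.31 points, and without Space replicate 2 that of Dnajc11 went from 1.02 to 0.343. Hspb3 averaged 2.01% ± 1.01 in Space and 5.72% ± 5.01 in Ground, and the difference of -3.71 points was -1.06 without Ground replicate 1, the highest sample at 11.0%. Dnajc25 averaged 34.0% ± 9.29 and 30.2% ± 7.35, on 488 calls in all, with differences of 0.265 to 9.06 points when single replicates were left out. Its 2 sites at 927 and 1009 bp downstream had no methylated read in Ground and 5.13% to 8.70% in Space. The nearer site had 21 to 39 reads per sample, so a few methylated reads set these levels. The 2 sites were picked after their values were seen and were not tested apart. Hspb2 was at 97.3% ± 2.38 and 93.4% ± 1.81, at 1 site. The adjusted p of each tested gene here was 0.940 or higher in the quasi-binomial test.

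Class means differed little between Space and Ground GS cells. Averaged over genes, the constitutive class was at 1.40% ± 0.129 in Space and 1.35% ± 0.364 in Ground (SD, n = 3 each). Heat-inducible genes were at 15.6% ± 1.38 and 15.0% ± 0.732, a mean that rests mostly on Hsp90aa1. Testis genes were at 3.00% ± 0.751 and 3.03% ± 0.581. Mitochondrial genes were at 6.31% ± 0.499 and 5.70% ± 0.602, and ER genes at 5.19% ± 1.17 and 4.84% ± 0.501. Over all 62 genes the means were 9.72% ± 0.382 and 9.65% ± 0.265, and over every measured gene 19.6% ± 0.243 and 19.4% ± 0.415. The mean level was higher in Space in 29 of the 62 genes and lower in 33, against 10661 genes higher and 9000 lower over all genes. The median absolute difference was 0.605 percentage points, against 0.790 over all genes.

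Partners and regulators of these chaperones were similar. Of 56 listed heat shock factors, co-chaperones, and chaperonin and prefoldin subunits, 48 were measured. Their median level was 2.37%, against 2.48% over all genes, and 34 of them were under 5%, against 65.3% of all genes. The highest were Unc45b, a myosin chaperone of muscle (96.5% at 1 site 1200 bp downstream), Pfdn5, a prefoldin subunit (35.1%), and Fkbp5, an Hsp90 co-chaperone of steroid receptors (22.1%). Of 43 tested, 0 were called by the quasi-binomial test, as were 0 of all genes tested. Against 5.22% of all genes tested, 1 of the 43 had an unadjusted p under 0.05. This was Hsf2, a heat shock factor expressed in spermatogenesis, at 1.05% ± 0.461 in Space and 2.34% ± 1.19 in Ground (adjusted p = 0.940 by the quasi-binomial test). Hsf1, the stress-activated factor, was at 3.91% ± 1.30 and 3.83% ± 0.507. Grpel2, a nucleotide exchange factor for mitochondrial Hsp70, was at 3.67% ± 2.90 and 0.779% ± 1.11. Pfdn5 was at 31.3% ± 3.92 in Space and 38.9% ± 3.77 in Ground, with overlapping samples.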

How the data were processed

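GS cell DNA of 6 samples was analyzed by RRBS. Per the labels, libraries were made with the Zymo-Seq RRBS kit. The submitters' processing notes name Trim Galore, Bismark 0.24.2, methylKit, and mm39, without settings. The authors deposited 1 table with the read count (coverage) of each CpG site, the percent of methylated reads, and the closest TSS with its distance. Coverage and percent gave the methylated reads of each site, within 0.000266 of a whole read. Coordinates are those of the table. Promoters came from RefSeq on GRCm38.p6, and no coordinates were converted. Sites with 10 reads in all samples within 5000 bp were summed per gene. Over all sites, not only these, coverage summed to 28535973 to 33743845 reads per sample.

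A quasi-binomial test was used, with Pearson dispersion moderated by squeezeVar of limma 3.58.1 (R 4.3.3) and Benjamini-Hochberg adjustment over all genes tested, and it was tested on simulated data, where it gave slightly too many unchanged genes a small unadjusted p. Alternatives included edgeR 4.0.16 on methylated and unmethylated counts, and limma on log2 ratios with 2 reads added. Gene classes and lists were chosen with earlier results of these data known. Named genes were all measured constitutive, heat-inducible, and testis genes, and among other members the 6 with the highest levels, the 6 with the smallest p, and the 5 with the largest differences. In the list of partners, the 3 highest and the 3 with the smallest p were named. Other genes in the text were chosen after their values were seen. RNA-seq data were not analysed here. The values of 1 gene of the set are not reported here.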

Additional observations from a re-analysis of the deposited data

How the results depend on the processing

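Under each of the 15 alternatives with a test, 0 chaperone genes were called, and 0 of all genes tested. The number at an unadjusted p under 0.05, 4 as reported, was 2 with a coverage minimum of 5 reads, against 5.29% of all genes, and 1 to 5 when single replicates were left out, against 4.74% to 6.39%. It was 1 without Ground replicate 1 (6.39% of all genes) and 2 without Space replicate 1 (4.92%). Samples with the same replicate number correlated at 0.0780, 0.0138, and 0.00852 in their deviations from the group means over 3885 genes. Samples with different numbers correlated at -0.0554 to 0.0413. These weak values cannot decide whether the numbers pair the samples, because the cultures behind the numbers are not given. The sample descriptions carry consecutive numbers for the Space and Ground samples of each replicate number, without saying what is numbered. The main test did not pair the samples. With the replicate block, 2 genes had an unadjusted p under 0.05, against 6.12% of all genes. The median of the heat-inducible genes was 1.97% with sites within 1000 bp, which left 3 genes. The mean difference of the testis genes was 1.88 percentage points with a coverage minimum of 5 reads, against -0.0241 as reported, and Dnajb7 enters the class at that minimum. Leaving out single replicates gave differences of -0.397 to 0.354 points for testis genes and -0.0926 to 1.23 for heat-inducible genes, which differed by 0.684 as reported. The cause of the change in the number of genes at an unadjusted p was not tested. The 4 listed genes differed by levels that 1 or a few methylated reads per site set, so depth limits what can be said of differences of a few points, and genes outside CpG-rich fragments were not read.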

Other observations

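Beyond the 5000 bp limit, the chaperone genes had 585 further sites with 10 reads in all samples, in 41 genes. Their mean level was 31.0%, with 30.5% to 31.4% over samples. Of these sites, 385 were under 10% and 166 over 80%. The low ones include the runs of 59 sites in Hsp90aa1 and 40 sites in Dnajc25 described above. Low runs also lay 9736 to 9823 bp upstream of Hspb1 (6 sites, 2.08%) and 7250 to 7271 bp upstream of Dnaja4 (2 sites, 1.33%). Dnaja3, a mitochondrial J-domain gene, had 14 sites at 8543 to 8712 bp downstream with a level of 97.6% and 8 sites near the TSS with a level of 0.643%.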
